A study of Mus musculus with 6 samples.

Results

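The thioredoxin system genes described here are 10 listed genes, found by matching the symbol of each entry in the 6 count files. They are the thioredoxins Txn1 and Txn2, the thioredoxin-like gene Txnl1, the thioredoxin reductases Txnrd1 and Txnrd2, the peroxiredoxins Prdx1, Prdx2, Prdx3 and Prdx5, and the sulfiredoxin Srxn1. Each had 1 entry among the 23282 of a file, and all 10 passed the filter on low counts that left 12088 genes to test. All 6 libraries are labelled as BMOL, a mouse line that the labels describe as liver progenitors, a label that the markers of the TXNIP libraries go against (values with the depths). RNA was read at the 3' end of each message. Of the 6 libraries, 3 carry the label of a vector control and 3 that of overexpression of TXNIP, the thioredoxin-interacting protein. The labels give no promoter, sequence, clone or passage for the overexpression. Nor do they tell if replicates were grown apart, so that p-values cover only the spread between these libraries, which may be technical.

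Thioredoxin is a small protein that reduces disulfide bonds in other proteins with a pair of cysteines. Thioredoxin reductase, a selenoprotein, recharges it with electrons from NADPH. Peroxiredoxins break down hydrogen peroxide and are in most cases recharged by thioredoxin, and sulfiredoxin repairs peroxiredoxins whose reactive cysteine has been oxidised too far. Txn1, Txnrd1, Prdx1, Prdx2 and Srxn1 act largely in the cytosol, whereas Txn2, Txnrd2 and Prdx3 act in mitochondria and Prdx5 in several compartments. TXNIP binds reduced thioredoxin and blocks its active site, which is why these genes are of interest in a comparison of TXNIP overexpression with a vector.

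The sites that define the first 2 families can be seen in their coding sequences (GENCODE M21 transcripts). In the thioredoxins, capitals mark the tryptophan codon and the 4 codons of the Cys-Gly-Pro-Cys active site, which TXNIP engages in Txn1. In the reductases, capitals mark the in-frame TGA that is read as selenocysteine, with 1 codon between it and the stop. These sequences show what the transcripts encode and carry no measurement.
Txn1 codons 26 to 40: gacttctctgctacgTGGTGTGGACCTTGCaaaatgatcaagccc
Txn2 codons 84 to 98: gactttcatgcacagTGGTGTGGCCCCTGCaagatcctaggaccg
Txnrd1 last codons: atcctccagtctggctgcTGAggttaa
Txnrd2 last codons: cctactgtgactggttgcTGAggctaa

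Total counts ranged from 8766820 to 15119775 in the vector controls and from 8725624 to 11176554 in the libraries labelled TXNIP overexpression. Txnip itself (chromosome 3, 96557957 to 96561857, GRCm38.p6) had 38.3, 9.63 and 10.8 CPM across the controls, and 217, 299 and 290 CPM across the TXNIP libraries, where CPM is the usual depth-normalised read count, here on TMM-scaled library sizes. Replicate 1 stood apart from replicates 2 and 3 in each group, as a chi-square of gene counts per degree of freedom was 24.2 to 29.4 in pairs with replicate 1 and 6.39 and 6.59 in the others. The markers of cell types went against the label of a liver progenitor line in the libraries labelled TXNIP overexpression, called the TXNIP libraries here, and every direction given rests on that label. Of 18 listed leukocyte and macrophage markers, 13 were tested and all 13 rose. The summed level of the list was 72.6 to 92.3 CPM across the controls, and 7102 to 7873 CPM across the TXNIP libraries. Most of the level in the controls came from Csf1r and Cd14, with means of 28.0 and 53.4 CPM, and no other tested marker had a control mean above 1.40 CPM. Itgam and Adgre1 had no read in the controls, and Cd3e, Clec4f and Marco had none in any library. Of 14 ductular and epithelial markers, 10 were tested, of which 9 fell and Spp1 rose. Without Spp1 their summed level went from 2589 to 3734 CPM in the controls to 0.0907 to 1.55 CPM across the TXNIP libraries, in which Sox9, Hnf4a and Krt7 had no read. Sox9, a defining progenitor marker, had 2792 reads over the controls. All tested markers separated the groups, so a difference in cell type cannot be told apart from TXNIP in any value given here. The part of either was not tested. In bulk RNA fewer cells of a type also cannot be told apart from less RNA per cell.

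Of the 10 genes, 4 passed at a Benjamini-Hochberg adjusted p of 0.05 over all tested genes (edgeR, quasi-likelihood). Srxn1 and Txnrd1 rose, Prdx2 and Prdx5 fell, and Txn1, Txn2, Txnl1, Txnrd2, Prdx1 and Prdx3 did not pass. Over all 12088 genes, 64.5% passed, 30.6% upward and 33.9% downward in the TXNIP libraries. The groups did not overlap in 6 of the 10 genes, against 70.4% of all tested genes. The median size of the log2 difference was 0.40 over the 10 genes and 0.80 over all tested genes. The plots of levels and of fold changes show the 10 genes side by side.

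**Figure D1:**
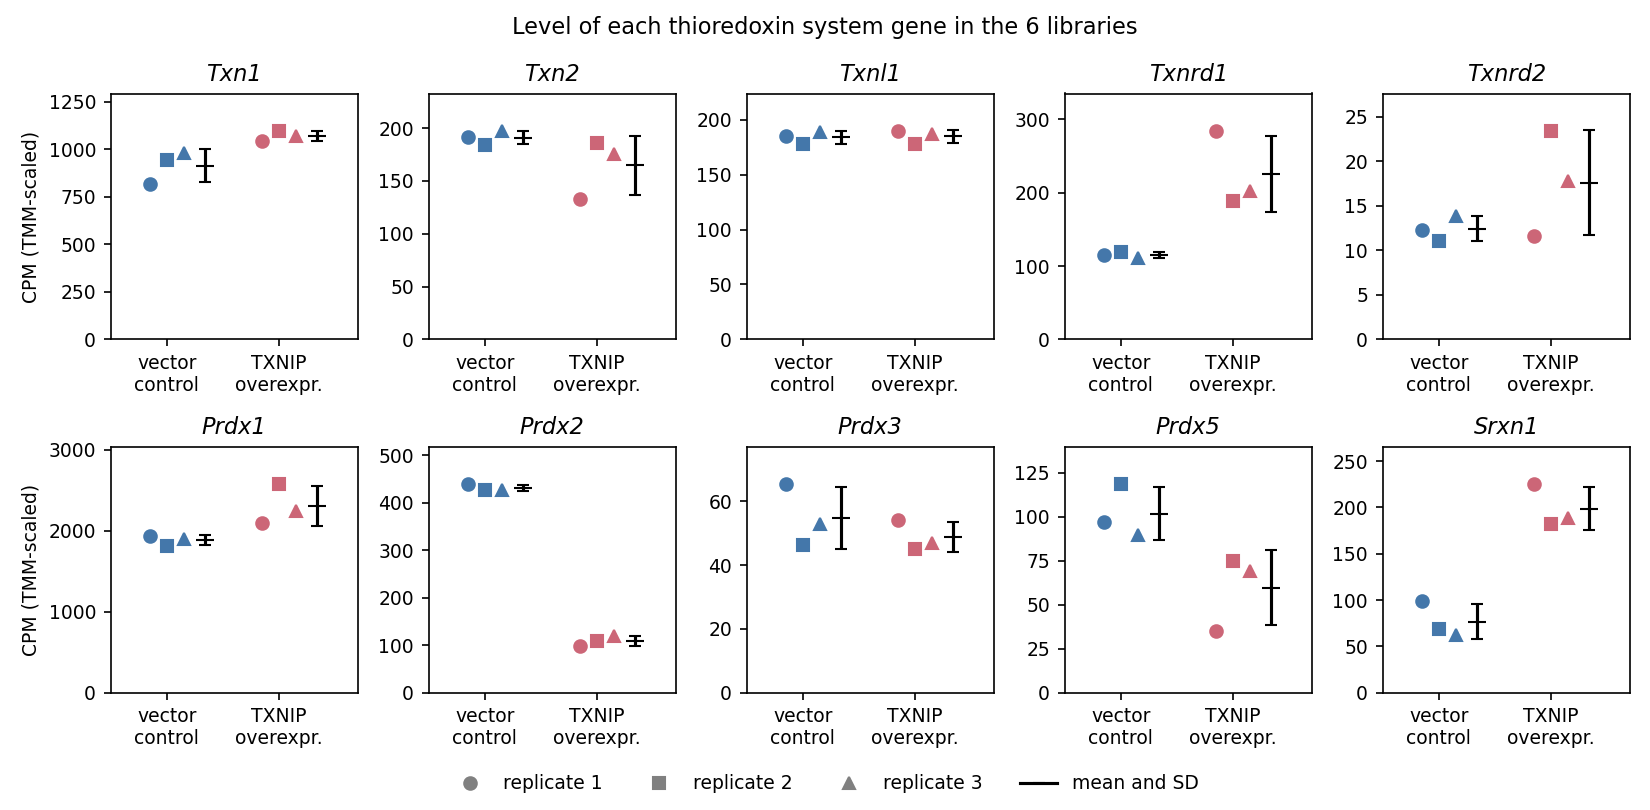
CPM (TMM-scaled, linear axes from 0) of each of the 10 genes in the 3 vector control libraries (blue) and the 3 libraries labelled TXNIP overexpression (red); symbols are replicates, and black marks are the mean and SD. The groups are far apart in Prdx2, Srxn1 and Txnrd1, and lie on the same level in Txnl1.

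**Figure D2:**
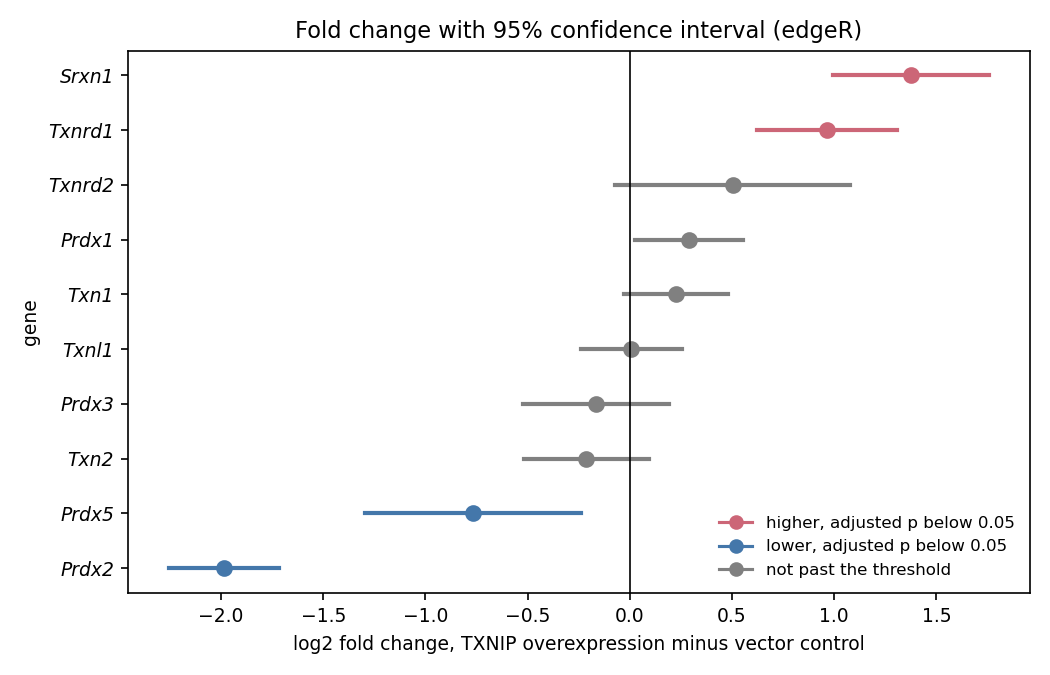
Log2 fold change of each gene (TXNIP overexpression minus vector control) with its 95% confidence interval from edgeR, 3 libraries per group. Srxn1 and Txnrd1 lie above 0 and Prdx2 and Prdx5 below it with an adjusted p below 0.05; the 6 genes in grey did not pass.

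Transcripts of the thioredoxins were abundant in both groups, and none of the 3 passed the test. Txn1, which encodes the cytosolic thioredoxin bound by TXNIP (chromosome 4, 57943373 to 57956411), had 819, 942 and 983 CPM across the controls, and 1045, 1097 and 1070 CPM across the TXNIP libraries. Each TXNIP library lay above each control, by a small step. The means were 914 ± 85.4 and 1071 ± 25.7 CPM (SD, n = 3 each), and the log2 fold change of 0.23 ± 0.12 (SE) did not pass (edgeR adjusted p = 0.106). Its 95% interval ran from -0.03 to 0.48, and without control replicate 1 it was 0.15.

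Txn2 encodes the mitochondrial thioredoxin (chromosome 15, 77915051 to 77928994). It had 192, 184 and 197 CPM across the controls, and 133, 186 and 176 CPM across the TXNIP libraries. Replicate 1 of the TXNIP group was low and the others lay at or just below the controls. The log2 fold change was -0.21 with a 95% interval from -0.52 to 0.09 (edgeR adjusted p = 0.201), and without that library it was -0.07. Txnl1, on chromosome 18, encodes a thioredoxin-like protein that associates with the proteasome. Its levels of 185, 178 and 189 CPM across the controls, and 190, 178 and 187 CPM across the TXNIP libraries were interleaved. The log2 fold change was 0.01 with a 95% interval from -0.24 to 0.25 (edgeR adjusted p = 0.953).

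Txnrd1 encodes the cytosolic reductase that recharges Txn1 (chromosome 10, 82833951 to 82897724). It had 115, 119 and 111 CPM across the controls, and 284, 189 and 203 CPM across the TXNIP libraries. The controls were tight, all TXNIP libraries were above them, and replicate 1 was the highest. The mean rose 1.95-fold, from 115 ± 4.23 to 225 ± 51.5 CPM (SD, n = 3 each), with a log2 fold change of 0.97 ± 0.16 (SE) and an edgeR adjusted p of 1.6e-04. Without replicate 1 of the TXNIP group the log2 fold change was 0.77 and the call stayed.

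Txnrd2 encodes the mitochondrial reductase (chromosome 16, 18426417 to 18479073) and was the lowest of the 10 genes in both groups. It had 12.3, 11.1 and 13.9 CPM across the controls, and 11.6, 23.4 and 17.8 CPM across the TXNIP libraries. Replicate 1 of the TXNIP group lay among the controls and the other TXNIP libraries above them. The log2 fold change of 0.50 ± 0.26 (SE) did not pass (edgeR adjusted p = 0.112). Without that library it was 0.73 and passed (edgeR adjusted p = 0.0175), whereas without replicate 2 of the TXNIP group it was 0.26 (edgeR adjusted p = 0.443). The value for Txnrd2 thus depends on single libraries in either direction.

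The peroxiredoxins were the most unequal family. Prdx1, the main cytosolic peroxiredoxin (chromosome 4, 116685599 to 116700000), had the highest level of the 10 genes in both groups. It had 1937, 1811 and 1900 CPM across the controls, and 2089, 2572 and 2243 CPM across the TXNIP libraries. All TXNIP libraries lay above all controls, with a wider spread. The log2 fold change of 0.29 ± 0.12 (SE) missed the threshold by little (edgeR adjusted p = 0.0515). Over the alternatives the adjusted p ranged from 0.00971 to 0.192 and the gene passed in 5 of 17. Among the left-out libraries it passed without replicate 1 of the TXNIP group (edgeR adjusted p = 0.00971) and without control replicate 1 (edgeR adjusted p = 0.0410).

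Prdx2, the other cytosolic peroxiredoxin and an abundant protein of red blood cells, showed the largest change of the 10 genes (chromosome 8, 84969622 to 84974811). It had 439, 428 and 426 CPM across the controls, and 97.8, 109 and 120 CPM across the TXNIP libraries. The controls differed from each other by little, and the highest TXNIP library was far below the lowest control. The mean fell from 431 ± 6.95 to 109 ± 11.1 CPM (SD, n = 3 each), which is 3.96-fold lower. On the log2 scale the difference was -1.98 ± 0.12 (SE; edgeR adjusted p = 3.2e-08), and it ranged from -2.05 to -1.90 over the alternatives. In the GENCODE M21 annotation the 3' end of Prdx2 overlaps Junb, an AP-1 gene on the opposite strand, by 351 bases, whereas the RefSeq models do not meet. No source used here gives the use of strand, so reads in that stretch cannot be told apart if the longer model was counted. Junb rose from 157 ± 61.1 to 267 ± 14.1 CPM (edgeR adjusted p = 0.00893), the opposite direction to Prdx2. Whether shared reads affect the value of either gene was not tested.

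Prdx3 encodes the peroxiredoxin of the mitochondrial matrix (chromosome 19, 60864066 to 60874538). It had 65.3, 46.2 and 52.8 CPM across the controls, and 54.2, 45.2 and 47.0 CPM across the TXNIP libraries, with overlapping groups. The log2 fold change was -0.17 with a 95% interval from -0.52 to 0.19 (edgeR adjusted p = 0.391). It was -0.03 without control replicate 1, -0.28 without control replicate 2 and -0.10 without replicate 2 of the TXNIP group. Prdx5, an atypical peroxiredoxin found in mitochondria, peroxisomes and the cytosol, lies on the same chromosome (6906697 to 6910106). It had 97.1, 118 and 89.5 CPM across the controls, and 35.3, 74.6 and 68.9 CPM across the TXNIP libraries. Every TXNIP library was below every control, and replicate 1 was much lower than the others. The mean fell 1.71-fold, from 102 ± 15.0 to 59.6 ± 21.2 CPM (SD, n = 3 each), with a log2 fold change of -0.77 ± 0.24 (SE) and an edgeR adjusted p of 0.0152. Without replicate 1 of the TXNIP group the log2 fold change was -0.50 and still passed, and without control replicate 2 it was -0.65 and did not pass (edgeR adjusted p = 0.0547).

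Srxn1 encodes sulfiredoxin, which restores overoxidised peroxiredoxins at the cost of ATP (chromosome 2, 152105524 to 152111376). It had 98.9, 68.9 and 62.6 CPM across the controls, and 225, 182 and 189 CPM across the TXNIP libraries. Replicate 1 was the highest in each group, and the groups were well apart. The mean rose 2.59-fold, from 76.8 ± 19.4 to 199 ± 23.0 CPM (SD, n = 3 each). This was the largest rise of the 10 genes, with a log2 fold change of 1.37 ± 0.18 (SE) and an edgeR adjusted p of 2.2e-05, and it ranged from 1.24 to 1.59 over the alternatives.

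Replicate 1 of the TXNIP group lay outside the range of replicates 2 and 3 in all 10 genes, above them in 4 and below them in 6. How often it did so among all tested genes was not counted. Replicate 1 also stood apart when all gene counts were compared, so whether the pattern is particular to the 10 genes was not tested. Replicate 1 was 1.45 times the mean of replicates 2 and 3 in Txnrd1, 0.492 times in Prdx5 and 0.566 times in Txnrd2. It was 0.965 times that mean in Txn1 and 1.04 times in Txnl1. Without this library 6 of the 10 genes passed, Prdx1 and Txnrd2 in addition to the 4 above.

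The 3' kit yields reads from the end of each message, so CPM was not divided by length, and the order of levels between genes is a description. In the controls the order was Prdx1, Txn1, Prdx2, Txn2, Txnl1, Txnrd1, Prdx5, Srxn1, Prdx3 and Txnrd2. The ranges of neighbours overlapped for Txn2 and Txnl1, Txnrd1 and Prdx5, Prdx5 and Srxn1, and Srxn1 and Prdx3. In the TXNIP libraries the order was Prdx1, Txn1, Txnrd1, Srxn1, Txnl1, Txn2, Prdx2, Prdx5, Prdx3 and Txnrd2, with overlapping ranges among Txnrd1, Srxn1, Txnl1 and Txn2 and between Prdx5 and Prdx3. Prdx1 and Txn1 lay above 99.2% or more of the tested genes in the controls, whereas Txnrd2 lay above 33.2%.

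Prdx1 made up a larger share of the peroxiredoxin reads in every TXNIP library than in any control, a description with no test of its own. In the controls, of all reads from Prdx1 to Prdx6, Prdx1 gave 64.0%, 60.8% and 62.6% and Prdx2 gave 14.5%, 14.3% and 14.0%. In the TXNIP libraries Prdx1 gave 81.3%, 83.2% and 80.0% and Prdx2 gave 3.81%, 3.52% and 4.29%. The share of Prdx3 was nearly the same, at 1.82% ± 0.311 and 1.75% ± 0.330 (SD, n = 3 each), while that of Prdx5 was 3.38% ± 0.532 and 2.08% ± 0.614. The other family members, which are not among the 10 genes, went opposite ways. Prdx4, the peroxiredoxin of the endoplasmic reticulum, had 6, 3 and 7 reads in the controls and 223, 419 and 487 reads in the TXNIP libraries, and rose from 0.442 ± 0.226 to 37.1 ± 9.33 CPM (edgeR adjusted p = 1.5e-08). Prdx6, which is recharged through glutathione rather than thioredoxin, fell from 545 ± 48.8 to 265 ± 15.3 CPM (edgeR adjusted p = 9.3e-06). The summed level of all 6 was 3015 ± 30.4 CPM across the controls, and 2820 ± 261 CPM across the TXNIP libraries, so that the make-up differed far more than the sum.

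**Figure D3:**
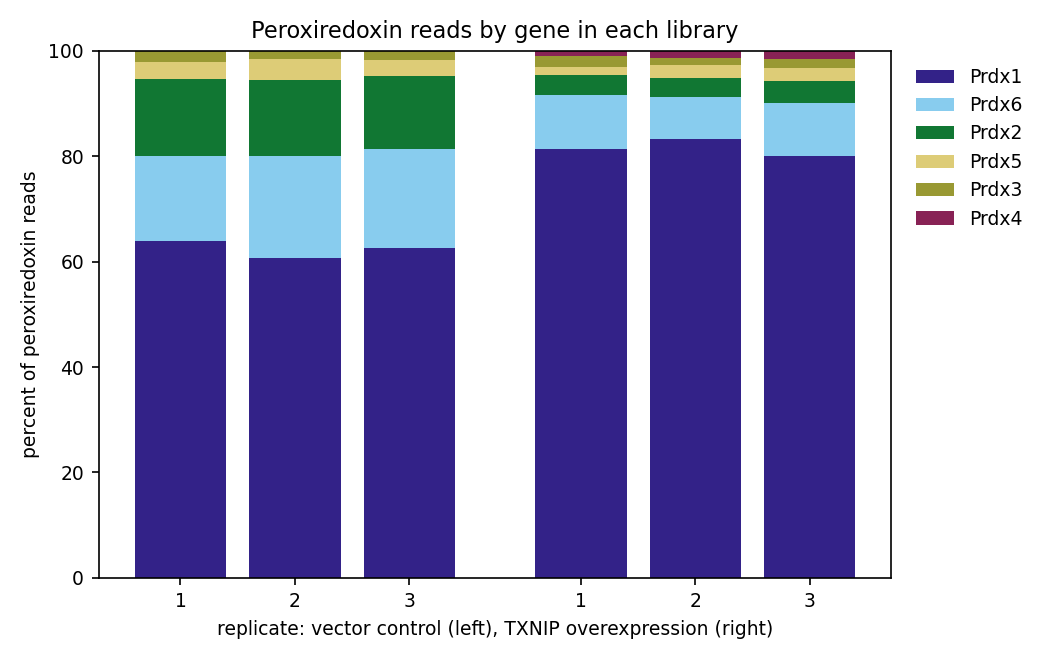
Share of each gene in the reads of the 6 peroxiredoxin genes (percent, stacked from 0 to 100), per library, with the vector controls on the left and the TXNIP overexpression libraries on the right. Prdx1 takes 60.8% to 64.0% in the controls and 80.0% to 83.2% in the TXNIP libraries, and the parts of Prdx2 and Prdx6 are smaller there.

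Ratios of 2 genes within a library do not depend on library size or scaling, and 9 were compared with a two-sided exact permutation test over the 6 libraries, whose smallest possible p is 0.1. The ratio of Txnip to Txn1 reads, that is of the inhibitor's transcript to that of its target, was 0.0468, 0.0102 and 0.0110 in the controls and 0.207, 0.272 and 0.271 in the TXNIP libraries. It was 14.3-fold higher by geometric means (exact permutation p = 0.1, adjusted p = 0.18 over the 9 ratios), and Txnip stayed below Txn1 in every library. The log2 difference of 3.84 became 4.55 without control replicate 1, whose ratio was the highest of the controls. The ratio uses reads of the mouse Txnip entry, and the labels give no sequence for the overexpressed TXNIP. A transcript of it with another 3' end may not be counted, so the ratio need not cover all of the inhibitor's transcript. Prdx1 reads were 4.41, 4.24 and 4.46 times those of Prdx2 in the controls and 21.4, 23.7 and 18.7 times in the TXNIP libraries, a 4.84-fold difference with the same p-values. Txnrd1 to Txn1, the reductase against its substrate, was 0.127 ± 0.0142 and 0.211 ± 0.0532, and Srxn1 to Prdx1 was 0.0407 ± 0.00933 and 0.0876 ± 0.0186 (SD, n = 3 each, exact permutation p = 0.1 and adjusted p = 0.18 in each).

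Txn1 to Txn2, the cytosolic against the mitochondrial thioredoxin, was 4.79 ± 0.451 in the controls and 6.61 ± 1.07 in the TXNIP libraries (SD, n = 3 each, exact permutation p = 0.1). The remaining 4 ratios overlapped between the groups. The ratio of the reductases Txnrd1 and Txnrd2 was 9.38, 10.8 and 7.96 in the controls and 24.4, 8.07 and 11.4 in the TXNIP libraries (exact permutation p = 0.4). Its mean log2 difference of 0.49 became 0.04 without replicate 1 of the TXNIP group, and that of Prdx3 to Prdx5 went from 0.68 to 0.26. Within the mitochondrial set, Prdx3 to Txn2 was 0.286 ± 0.0478 and 0.306 ± 0.0880 (SD, n = 3 each, exact permutation p = 0.9), and the sign of its log2 difference changed with the library left out (-0.15 to 0.22).

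**Figure D4:**
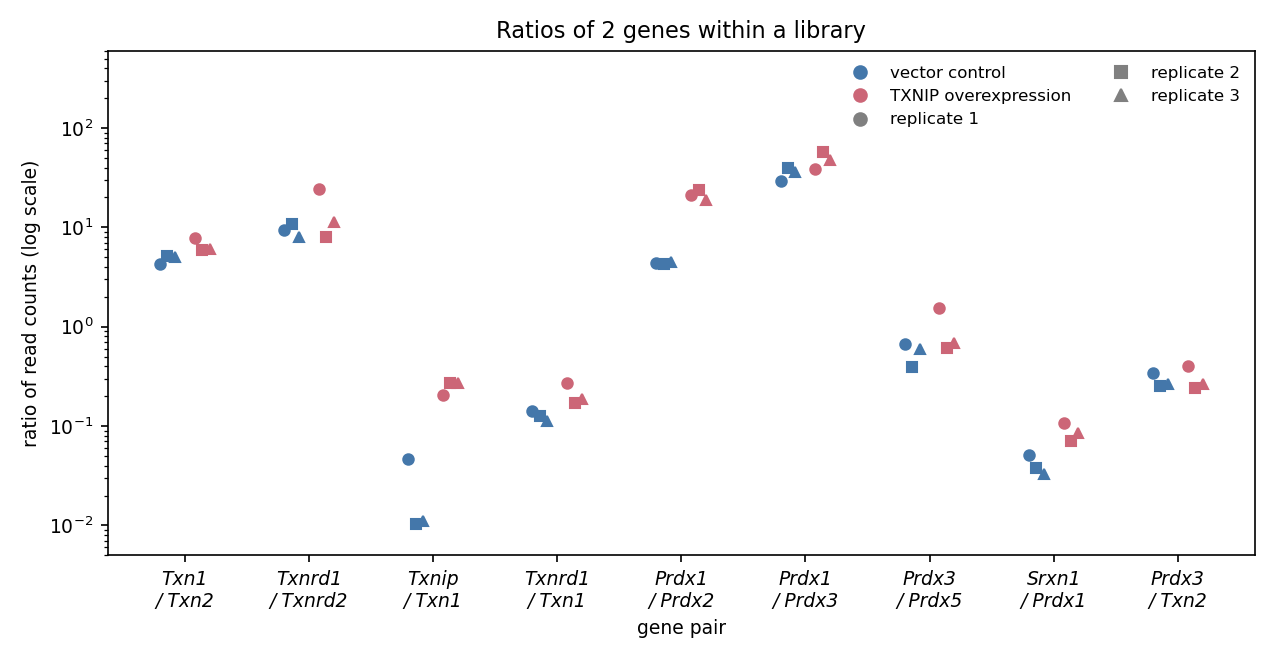
Ratio of the read counts of 2 genes in each library (log axis) for 9 gene pairs, vector controls in blue and TXNIP overexpression in red, with symbols for replicates. Txnip to Txn1 and Prdx1 to Prdx2 are furthest apart between the groups, and Txnrd1 to Txnrd2 overlaps, with replicate 1 of the TXNIP group the highest and replicate 2 among the controls.

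Srxn1, Txnrd1 and Prdx1 are textbook targets of NRF2, a transcription factor that binds antioxidant response elements, and their RefSeq promoters are shown for that reason. The 250 bases before the start of transcription were searched on both strands for TGACNNNGC, a common core of the element, and for TGANTCAGC, a form that overlaps the AP-1 site. This form and the window were chosen after the sequences were seen, and in the longer window looked at first, which reached past the start, Srxn1 also held TGACNNNGC. A stretch can match both motifs at once, as it does in Prdx1. Of the 9 genes with a start site searched (11 start sites, Txnl1 not included), TGACNNNGC occurred in Txnrd1 and Prdx1 and TGANTCAGC in Prdx1 and Srxn1. In Txnrd1 only the second of 3 start sites held a match. These are counts of genes with a match at any start site, whereas the shares that follow are per window. Of all 32851 such windows in the RefSeq table, 10.2% held the first and 1.02% the second. The match lies 92 to 84 bases before a start site of Txnrd1, 133 to 125 bases before that of Prdx1 and 45 to 37 bases before that of Srxn1. Capitals mark these matches, each sequence is on the plus strand of GRCm38.p6, and a match is a description of the letters only.
Srxn1, chr2:152105274-152105523: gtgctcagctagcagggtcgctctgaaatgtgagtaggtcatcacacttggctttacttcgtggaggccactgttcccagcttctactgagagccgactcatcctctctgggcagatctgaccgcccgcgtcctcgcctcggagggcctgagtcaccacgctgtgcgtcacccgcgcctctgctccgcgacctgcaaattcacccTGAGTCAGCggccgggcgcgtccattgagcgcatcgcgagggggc
Txnrd1, second start site, chr10:82858956-82859205: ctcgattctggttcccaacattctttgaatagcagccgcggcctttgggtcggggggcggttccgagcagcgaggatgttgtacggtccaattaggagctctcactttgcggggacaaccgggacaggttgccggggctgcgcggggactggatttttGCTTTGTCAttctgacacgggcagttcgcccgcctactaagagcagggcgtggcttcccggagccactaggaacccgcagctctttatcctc
Prdx1, chr4:116685349-116685598: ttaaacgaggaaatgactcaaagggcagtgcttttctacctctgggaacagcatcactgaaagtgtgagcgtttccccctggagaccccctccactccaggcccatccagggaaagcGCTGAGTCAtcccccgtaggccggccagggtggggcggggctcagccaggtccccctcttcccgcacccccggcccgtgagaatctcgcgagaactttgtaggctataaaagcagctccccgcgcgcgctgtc

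The NRF2 pathway itself went both ways in the same libraries. Of 17 listed genes 16 were tested, of which 9 rose, 4 fell and 3 did not pass, with a median log2 difference of 0.42 against -0.04 over all tested genes. The share called was 81.25%, against 64.5% of all tested genes. Only 7 rose without control replicate 2 or 3 or replicate 1 of the TXNIP group. The same number rose with TMM on well-expressed genes and with library size alone, and in the latter 5 fell. Slc7a11, which imports cystine for glutathione synthesis, rose from 8.93 ± 1.11 to 124 ± 16.8 CPM, and G6pdx, which makes NADPH, rose from 28.0 ± 3.19 to 201 ± 21.8 CPM (SD, n = 3 each). Mafg, a partner of NRF2 on DNA, rose from 104 ± 4.91 to 387 ± 18.2 CPM, whereas the NADPH-producing malic enzyme gene Me1 fell from 355 ± 23.6 to 64.5 ± 3.75 CPM. Osgin1 fell from 63.7 to 6.44 CPM on average, Gsr from 305 to 111 CPM and Gclc from 170 to 82.5 CPM, which with Me1 are the 4 that fell. On average Hmox1 rose from 20.7 to 66.8 CPM, Pgd from 215 to 669 CPM and Taldo1 from 245 to 566 CPM. Tkt rose from 134 to 241 CPM and Gclm from 132 to 165 CPM. With Slc7a11, G6pdx, Mafg and Nfe2l2 these are the 9 that rose. Keap1, the repressor of NRF2, had 98.1 ± 4.46 and 82.0 ± 6.19 CPM (edgeR adjusted p = 0.0920), and Bach1, a competitor at its sites, had 21.0 ± 5.28 and 22.6 ± 1.53 CPM (edgeR adjusted p = 0.667), so neither passed. NRF2's own gene Nfe2l2 had 111 ± 39.2 and 158 ± 10.7 CPM (edgeR adjusted p = 0.0462), a call that was lost without control replicate 2 or 3 or any of the TXNIP libraries (adjusted p from 0.0577 to 0.176), and under 4 other scalings or filters. Nqo1, often used as a readout of NRF2, had 3 reads over the controls and 26 over the TXNIP libraries and was not tested.

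Among other thioredoxin-fold proteins, reductases and peroxiredoxins, 20 of 21 listed genes were tested, of which 6 rose, 5 fell and 9 did not pass. The share called was 55.0%, against 64.5% of all tested genes, and the median log2 difference was 0.09. The glutaredoxin gene Glrx, whose product works beside thioredoxin with glutathione as its electron source, rose from 15.3 ± 4.60 to 82.5 ± 5.51 CPM. The mitochondrial glutaredoxin gene Glrx5, needed for iron-sulfur clusters, rose from 151 ± 13.4 to 290 ± 16.2 CPM. Txnrd3, another reductase gene, which joins a glutaredoxin domain to the reductase, fell from 19.8 ± 2.22 to 6.13 ± 1.67 CPM, opposite to Txnrd1 (edgeR adjusted p = 1.1e-04; the difference between them was not tested).

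Of 14 partners and clients of thioredoxin, Txnip included, 6 rose, 4 fell and 4 did not pass, with a median log2 difference of 0.25. The share called was 71.4%, against 64.5% of all tested genes. Txnip, the gene named in the group label, is among the 6 that rose and adds to that share. Sesn1 and Sesn3 encode sestrins, stress proteins linked to peroxiredoxin repair. Sesn1 rose from 3.54 ± 0.409 to 19.5 ± 1.03 CPM, while Sesn3 had 771 reads over the controls and none over the TXNIP libraries. Msrb3, a methionine sulfoxide reductase gene, had 50.5 ± 5.21 CPM across the controls, and 1 read over the TXNIP libraries. The kinase gene Map3k5 (ASK1), whose product thioredoxin holds inactive, had 25.0 ± 12.5 and 40.8 ± 1.87 CPM (edgeR adjusted p = 0.0434), a call lost without control replicate 2 or 3 or any of the TXNIP libraries (adjusted p from 0.0677 to 0.145), with library size alone (0.0724) and with TMM on well-expressed genes (0.0583). The ribonucleotide reductase gene Rrm2, whose enzyme takes electrons from thioredoxin, went from 164 ± 25.1 to 132 ± 19.9 CPM, short of the threshold (edgeR adjusted p = 0.101). Rrm2 passed with the replicate block (0.0404), with library size alone (0.0499) and without control replicate 1 (0.0252), which makes 5 lower in this list. The number that rose was 4 without control replicate 2 or 3 or replicate 1 or 3 of the TXNIP group.

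The machinery that inserts selenocysteine, on which both reductases depend, had 8 tested genes, of which 2 rose, 1 fell and 5 did not pass. That is 37.5% called, against 64.5% of all tested genes, and none fell without control replicate 1. Secisbp2, which binds the selenocysteine insertion element, rose from 11.7 ± 0.794 to 27.9 ± 2.59 CPM, and Sephs1, a selenophosphate synthetase family gene, rose by 0.55 on the log2 scale (edgeR adjusted p = 0.00445). Of 9 other peroxide and superoxide enzymes, 5 were tested, of which 2 rose, 2 fell and 1 did not pass (80.0% called). Only 1 rose without control replicate 2 or 3 or replicate 2 or 3 of the TXNIP group or with library size alone, and 1 fell without control replicate 3 or replicate 2 of the TXNIP group. Catalase (Cat), the peroxide enzyme of peroxisomes, rose from 96.9 ± 26.7 to 183 ± 16.2 CPM. Gpx4, a selenoprotein that reduces lipid peroxides, fell from 155 ± 13.2 to 51.3 ± 2.76 CPM. Gpx1, the cytosolic glutathione peroxidase gene, did not pass, with overlapping groups at 246 ± 54.1 and 276 ± 55.2 CPM (edgeR adjusted p = 0.460).

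The tested genes most like the member with the largest rise and the one with the largest fall were found by the root mean square difference of centred log2 levels over the 6 libraries. Closest to Srxn1 were Grn, Ier3 and Ap3b1, with differences of 0.0746, 0.0786 and 0.0844. Mean levels of Grn, the progranulin gene, were 398 and 1093 CPM in the controls and the TXNIP libraries, and those of Ier3 were 380 and 971 CPM. Closest to Prdx2 were Asah1, Uba3 and Sema3b, with differences of 0.0471, 0.0642 and 0.0729, and Sema3b was near the floor, with 62 reads over the controls and 1 over the TXNIP libraries. The fitted log2 fold change of Sema3b was -5.19, against -1.98 for Prdx2, so its likeness depends on the 0.5 CPM added before log2. Mean levels of Asah1, which encodes acid ceramidase, were 120 and 28.9 CPM, and those of Uba3, which encodes a subunit of the NEDD8-activating enzyme, were 53.6 and 13.2 CPM.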

How the data were processed

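Libraries were made with the Lexogen QuantSeq 3' kit from Trizol RNA, per the labels' protocols. Each deposited file lists unnormalized read counts by gene symbol. Bowtie2, bedtools and mm10 appear in the submitters' processing notes. The sources used here do not give versions, settings, annotation, strand or how duplicates and shared reads were handled. RefSeq names pseudogenes of Txn1, Prdx1 and Prdx2 with which reads could be shared.

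The counts were filtered with filterByExpr, scaled with TMM and fitted by quasi-likelihood (edgeR 4.0.16, R 4.3.3; robust, group as the only term, two-sided, Benjamini-Hochberg over 12088 genes). Levels are CPM on TMM-scaled library sizes. DESeq2 1.42.0 and limma 3.58.1 (voom) were alternatives. The quasi-likelihood F test gives no standard error, so each SE was derived as the absolute log2 fold change over the square root of F. Confidence intervals are at 95%, use this SE with a t quantile and are approximate. For likeness 0.5 CPM was added before taking log2. The scripts were tested on simulated counts. No molecular identifiers are described, so reads may not be independent molecules.

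The named genes were the 10 genes, Txnip, up to 4 genes with the smallest adjusted p in each pathway list, a short fixed set of redox genes, and 3 genes most like each of 2 members; not all are printed. Junb, Osgin1, Gsr, Gclc, Hmox1, Pgd, Taldo1, Tkt, Gclm, Cd14 and the markers with no read were named after their values were seen. The members and lists were chosen with earlier results of these data known. Positions and promoters are from RefSeq on GRCm38.p6, the assembly of mm10, and all 10 symbols matched. The promoter motifs CACGTG and CCAAT were searched at first and are not reported. Plots were drawn with matplotlib 3.10.9.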

Additional observations from a re-analysis of the deposited data

How the results depend on the processing

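Over 17 alternatives (other scaling factors, filters, tests, thresholds, a replicate block and each library left out) the number of all genes called ranged from 6440 to 8245, and of the 10 genes 3 to 6 passed. Srxn1, Txnrd1 and Prdx2 passed in all 17, with log2 fold changes of 1.24 to 1.59, 0.77 to 1.09 and -2.05 to -1.90. The number of the 10 genes called higher was 2 to 4 with a library left out, and 4 without replicate 1 of the TXNIP group. The number called lower was 1 to 2 with a library left out, 1 without control replicate 2, and 1 at an adjusted p of 0.01, where Prdx5 no longer passed. Txn1, Txn2, Txnl1 and Prdx3 passed in none of them, and the sign of Txnl1 changed between settings (-0.06 to 0.05). Replicate numbers are shared between the groups, but libraries with the same number correlated by only 0.0954, 0.0422 and 0.050 in their deviations from the group means, so they were not taken as pairs. Every library did correlate best with its own number, a hint from the data and not from the design, by a narrow margin in replicates 2 and 3. With the replicate block 7767 genes and the same 4 of the 10 genes passed. With 3 libraries per group the exact permutation tests of ratios cannot go below p = 0.1, and for Txnrd2, with 98 to 242 reads per library, counting error adds to the spread.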
